A study of Mus musculus with 6 samples.

Results

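The genes described here are 33 genes that a cell turns on when it leaves G1 and copies its DNA in S phase. They were chosen by name, and a gene was measured where the platform annotation gives a probe set that gene symbol and no other. Of the 33, 31 had such a probe set, out of 22180 genes named in this way. The 2 others, Ccne2 and Rfc4, share their probe sets with Ints8 and Eif4a2 and are not analysed here. Fen1 and Rrm2 had more than 1 probe set, and the one that averaged highest on the 6 arrays stands for the gene.

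Blood endothelial cells were sorted from the intestine of mice on a mixed C57BL/6 x 129 background, as live CD31+ cells without CD45, EpCAM or gp38. The labels of both groups name floxed Apc alleles (Apcfl//fl), and all mice were given tamoxifen on each of 5 days before collection of the intestine on day 6. The 3 knockout mice also carried Villin-CreERT2, a tamoxifen-activated recombinase under a promoter of intestinal epithelium, so that Apc, a negative regulator of Wnt signalling, was removed from epithelial cells and not from the sorted endothelium. The 3 control mice are labelled WT, Apcfl//fl, with no Cre named, which does not settle whether each of them carried the floxed alleles. The ages of the mice and the length of intestine are not given in the sources used here. Amplified RNA of each sample was hybridised to 1 Affymetrix Mouse Gene 2.0 ST array, labelled as a biological replicate, and values are RMA values on the log2 scale. The comparison asks whether the endothelium next to Apc-deficient epithelium differs in its replication genes.

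DNA replication begins with licensing. In G1, the origin recognition complex, CDC6 and CDT1 load the ring-shaped MCM2-7 helicase onto DNA, and in S phase CDC45 and the GINS complex turn it into the moving helicase that polymerases follow. Many of the genes involved share E2F sites near their start and are held off by RB proteins in resting cells until cyclin-dependent kinases release them. Vessel endothelium in the adult is mostly resting, and sprouting brings some of its cells back into the cycle.

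Letters of an E2F site were found near the start of 11 of the 28 genes for which RefSeq gives a promoter window. Stretches are shown for 4 of the members that carry these letters upstream of the start. They are the 4 such members with the smallest p in the comparison of knockout and control below. The E2F letters searched, on both strands, were TTTCCCGC, TTTGGCGC, TTTCGCGC and TTTGCCGC, whose matches may overlap each other. The sequences are from RefSeq (build GRCm38.p6), run 5′ to 3′ on the strand of the gene, end before the annotated start, and have the matched letters in capitals.
Mcm6 (chr1:128359706-128359860, minus strand): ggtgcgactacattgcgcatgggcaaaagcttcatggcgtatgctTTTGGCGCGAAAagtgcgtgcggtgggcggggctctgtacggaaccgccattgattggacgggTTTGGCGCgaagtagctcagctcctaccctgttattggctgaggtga
Mcm5 (chr8:75109311-75109412, plus strand): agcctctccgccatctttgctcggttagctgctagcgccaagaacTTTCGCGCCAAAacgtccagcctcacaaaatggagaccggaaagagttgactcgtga
Uhrf1 (chr17:56304083-56304180, plus strand): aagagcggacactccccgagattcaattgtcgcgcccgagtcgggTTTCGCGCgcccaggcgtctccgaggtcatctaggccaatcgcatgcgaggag
Rfc3 (chr5:151651209-151651263, minus strand): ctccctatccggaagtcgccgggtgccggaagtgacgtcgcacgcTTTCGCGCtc

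In Mcm6 the capitals begin 110 and 47 bases upstream of the start, in Mcm5 153, in Uhrf1 185 and in Rfc3 10 bases upstream. The Mcm6 and Mcm5 runs of capitals that are longer than the rest each hold overlapping matches on opposite strands. Over windows from 250 bases before to 50 after a start, 35.5% of the members' 31 windows held E2F letters, against 2.26% of the 32851 windows of all genes. The members' windows were richer in G and C, with a median of 63.0% against 52.7%. Among windows with between 54.3% and 67.0% G and C, 46.7% of the members' 15 windows held the letters, against 3.78% of 10395 windows of all genes. Mcm3, Mcm7, Cdc6, Cdt1, Pola1, Hells and Dtl were the other members with a match, which in Mcm3 and Cdt1 lay downstream of the start only.

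Other motif letters were compared over the same windows. The CHR letters TTTGAA or TTCGAA, the core of an element known from promoters of mitotic genes, were in 19.4% of the members' windows, 76.4% of 55 windows of mitotic genes and 19.2% of all windows. The E2F letters were in 3.64% of the windows of mitotic genes. CCAAT, the core of the NF-Y box, was in 61.3% of the members' windows, 78.2% of those of mitotic genes and 37.4% of all. The E-box letters CACGTG, a site of MYC and related factors, were in 6.45%, 5.45% and 7.15% in the same order. A match of letters describes the sequence and does not show that a factor is bound.

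**Figure D1:**
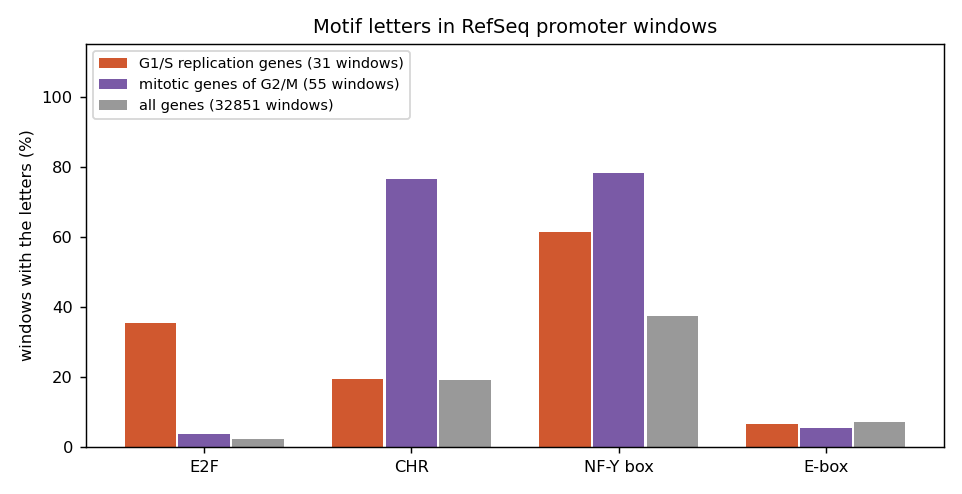
Share of RefSeq promoter windows (250 bases before to 50 after a start, in percent) that hold the letters of each motif on either strand, for the G1/S replication genes (31 windows), mitotic genes of G2/M (55) and all genes (32851). The E2F bar stands at 35.5% for the replication genes and 2.26% for all genes, and the CHR bar at 76.4% for the mitotic genes.

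The replication genes lay slightly higher in knockout than in control endothelium, and none of them passed the test. A gene counted as above background where its mean over the 6 arrays exceeded 4.11, the 90th percentile of 1429 olfactory, vomeronasal and bitter taste receptor genes. Of the 31 measured members, 26 were above it, and Gins1, Hells, Dtl, E2f8 and Exo1 were not. Among the 26, the knockout mean was higher for 23 and lower for Ung, E2f1 and Ccne1, against a higher mean in 46.7% of all 15312 genes tested. The log2 changes, knockout minus control, ran from -0.21 for Ung to 0.38 for Uhrf1, with a median of 0.12, against a median of -0.017 over all genes tested. By limma with Benjamini-Hochberg adjustment over all genes tested, 0 members passed an adjusted p of 0.05, where 2.57% of all genes did, and the members' adjusted p ran from 0.209 to 0.98. At an unadjusted p of 0.05 there were 3 members, Tyms, Mcm3 and Mcm6, which is 11.5% against 16.4% of all genes. All 3 were higher, which 7.2% of all genes were at that p. The values of the 3 knockout arrays all lay above those of the 3 control arrays for 4 members (15.4%), Tyms, Mcm3, Cdt1 and Pola1, against 9.78% of all genes, and all lay below for 0 members, against 12.3%.

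The size of the changes was small against what the arrays could resolve. The largest change among the 26 members above background was a 1.3-fold higher mean, and 5.09% of all genes tested had a change as high or higher. The 95% intervals, not adjusted for the number of genes, lay wholly below a doubling for 25 of the 26 members, the exception being Rrm2, and wholly above a halving for all 26. For 13 members the interval lay within 0.5 of 0 on the log2 scale. The median standard error of the members' changes was 0.14, above the median change itself. In sorted cells, more cells in S phase and more replication transcripts per cell cannot be told apart.

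**Figure D2:**
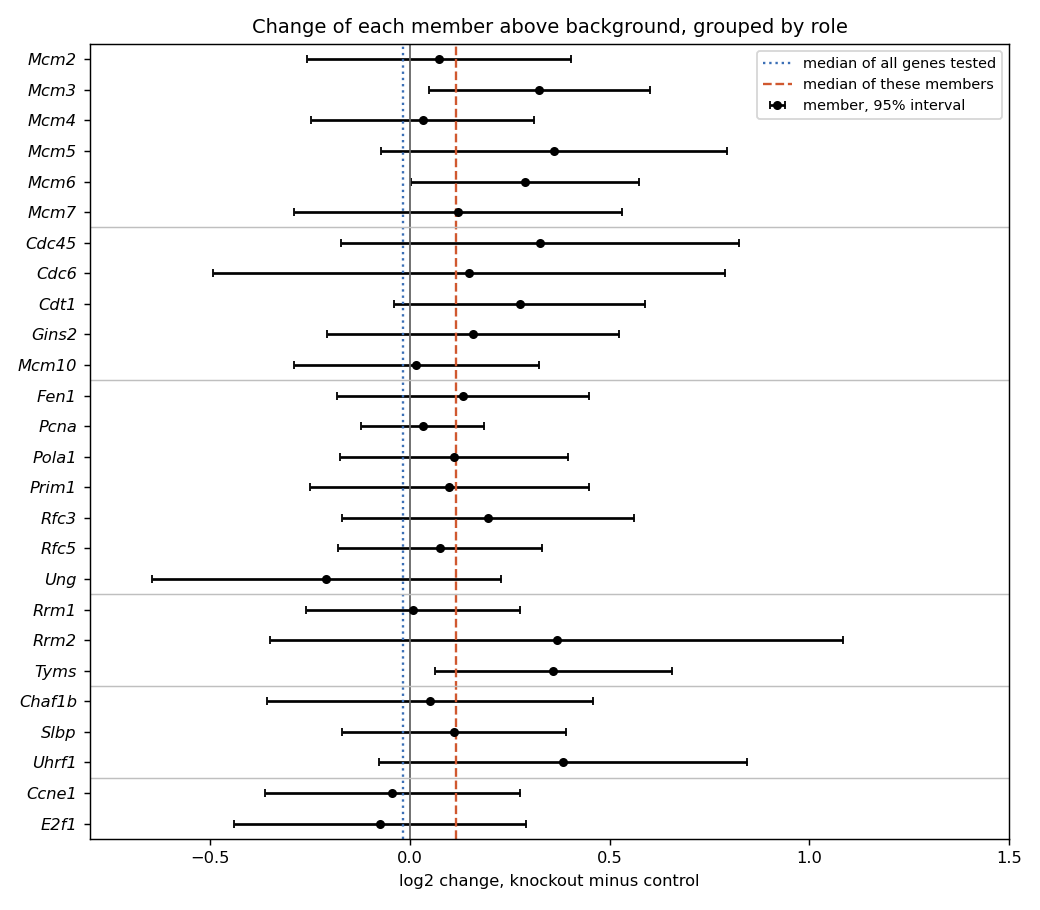
Log2 change (knockout minus control, x axis) of the 26 replication genes above background, with 95% intervals from limma, grouped by role from the MCM helicase at the top to control of S-phase entry at the bottom. Most points lie to the right of 0, their median (dashed) is 0.12 against -0.017 for all genes tested (dotted), and the intervals of Tyms, Mcm3 and Mcm6 alone exclude 0.

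The 6 subunits of the MCM helicase, the ring that unwinds DNA at the fork, all had a higher mean in the knockout, with a median change of 0.20 and 0 called. Mcm3 was at 7.12, 7.13 and 7.23 on the knockout arrays and at 6.67, 6.94 and 6.90 on the control arrays. Its groups did not overlap, and control 1 was the lowest of the 6. The group means were 7.16 ± 0.064 and 6.84 ± 0.15 (SD, n = 3 each), a change of 0.32 ± 0.12 (SE, adjusted p = 0.223). Mcm6 was at 7.93, 7.77 and 7.94 in the knockout and at 7.62, 7.77 and 7.38 in the control, so that knockout 2 and control 2 were level, and the change was 0.29 ± 0.13 (adjusted p = 0.298). Mcm5 was at 6.10, 5.79 and 5.51 against 5.21, 5.68 and 5.43, with knockout 3 inside the range of the controls (0.36 ± 0.19, adjusted p = 0.4). The change was 0.12 ± 0.18 for Mcm7, 0.074 ± 0.15 for Mcm2 and 0.032 ± 0.12 for Mcm4, with overlapping groups. The subunits work as 1 complex. The array on which each was highest was knockout 1 for Mcm4 and Mcm5, knockout 2 for Mcm7, knockout 3 for Mcm3 and Mcm6, and control 2 for Mcm2.

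Genes that load and activate the helicase had a higher mean in all 5 members above background, with a median of 0.16 and 0 called. Cdt1, which brings the helicase to origins, was at 6.18, 6.32 and 6.38 in the knockout and at 5.85, 6.13 and 6.08 in the control. The groups did not overlap, by a narrow gap between knockout 1 and control 2, and the change was 0.28 ± 0.14 (adjusted p = 0.374). Cdc45, a part of the active helicase, was at 4.92, 5.63 and 4.85 against 5.03, 4.66 and 4.73. Knockout 2 stood alone there, the other knockout arrays lying below control 1, and the change was 0.33 ± 0.22 (adjusted p = 0.525). Cdc6, the loader, spread likewise, at 3.76, 4.94 and 4.20 against 4.51, 4.01 and 3.95, with 3 of the 6 arrays above background and a change of 0.15 ± 0.28. The change was 0.16 ± 0.16 for Gins2, a GINS subunit, and 0.017 ± 0.14 for Mcm10, which helps to start the fork. Gins1 was below background on all 6 arrays, at 3.50 to 3.89 in the knockout and 3.35 to 3.41 in the control, without overlap.

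Genes of DNA synthesis, the sliding clamp and flap removal lay within 0.21 of the control mean. Of 7 members above background, 6 had a higher mean and Ung a lower one, with a median of 0.099. Pcna, the clamp that holds polymerases on DNA, was the replication gene with the highest signal, at 10.14, 10.27 and 10.30 in the knockout and 10.22, 10.15 and 10.24 in the control. The groups overlapped, and its interval was the narrowest of the members, from -0.12 to 0.19 around 0.033. Pola1, the catalytic subunit of the polymerase that starts each strand, was at 5.53, 5.49 and 5.50 against 5.41, 5.42 and 5.36. Its groups did not overlap, but the change was only 0.11 ± 0.13 (adjusted p = 0.722). Rfc3, a subunit of the clamp loader, was at 6.45, 6.02 and 6.00 against 5.86, 6.07 and 5.95, with knockout 1 alone above the controls (0.20 ± 0.16, adjusted p = 0.609). The change was 0.13 ± 0.14 for Fen1, the flap nuclease, 0.099 ± 0.15 for the primase subunit gene Prim1 and 0.076 ± 0.11 for Rfc5, another clamp loader subunit. Ung, which removes uracil from DNA, had the lowest change of the members at -0.21 ± 0.19 (adjusted p = 0.654). Exo1, a nuclease of mismatch repair, was above background on 2 of the 6 arrays, at 3.91 to 4.14 in the knockout and 3.85 to 4.18 in the control.

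Nucleotide supply held the member with the smallest p. Tyms, which makes the thymidine nucleotide of DNA, was at 7.60, 7.26 and 7.59 in the knockout and at 7.01, 7.19 and 7.17 in the control. The groups did not overlap, with knockout 2 just above control 2. Its means were 7.48 ± 0.19 and 7.12 ± 0.10 (SD, n = 3 each), a 1.28-fold difference (log2 change 0.36 ± 0.13, SE, adjusted p = 0.209). Rrm2 and Rrm1 encode the subunits of ribonucleotide reductase, which makes deoxynucleotides. Rrm2, the subunit known to be tied to S phase, was at 5.48, 5.82 and 4.42 against 4.66, 5.08 and 4.88, so that knockouts 1 and 2 were the highest and knockout 3 the lowest of all 6 arrays. Its change of 0.37 ± 0.32 (adjusted p = 0.626) was the least certain of the members, with an interval from -0.35 to 1.08. Its other probe set gave a difference of 0.29 with knockout 2 again the highest. Rrm1, the large subunit, was between 7.15 and 7.24 in the knockout and between 7.07 and 7.34 in the control, a change of 0.0096 ± 0.12.

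Uhrf1 acts on chromatin behind the fork and carries DNA methylation over to the new strand. It had the highest change of the members above background. It was at 5.91, 6.43 and 5.79 in the knockout and 5.82, 5.78 and 5.38 in the control. Knockout 2 stood above the rest while knockout 3 lay between controls 1 and 2, and the change was 0.38 ± 0.20 (adjusted p = 0.401). Without knockout 2 it was 0.19, below that of Tyms at 0.47. The change was 0.11 ± 0.12 for Slbp, which binds histone messages, and 0.051 ± 0.18 for Chaf1b, a subunit of a histone chaperone. Hells, a chromatin remodeller, was above background on knockout 3 alone, at 4.6, the others being at 3.40 to 4.09.

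Both control genes of S-phase entry that were above background had a slightly lower mean, which rested on control 3. E2f1, an activating E2F factor, was at 5.39, 5.28 and 5.07 against 5.26, 5.14 and 5.56, and its groups overlapped (-0.074 ± 0.16, adjusted p = 0.87). Control 3 was the highest array, and without it the change was 0.044, as it was 0.012 without knockout 3. Ccne1, the cyclin that drives S-phase entry, had a change of -0.043 ± 0.14 (adjusted p = 0.919), which was 0.040 without control 3, 0.11 against control 1 alone and 0.036 with quantile normalization repeated. Dtl, which directs the destruction of CDT1 in S phase, and E2f8, a repressing E2F factor, were below background on every array. Dtl was at 3.82 to 3.91 in the knockout and 3.22 to 3.45 in the control, and E2f8 at 3.92 to 3.97 and 3.63 to 3.83. Both had the higher mean in the knockout without overlap, but lay below background and were left out of the test over genes above background. The Dtl means, 3.85 against 3.31, lay further apart than those of Uhrf1, 6.04 against 5.66.

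**Figure D3:**
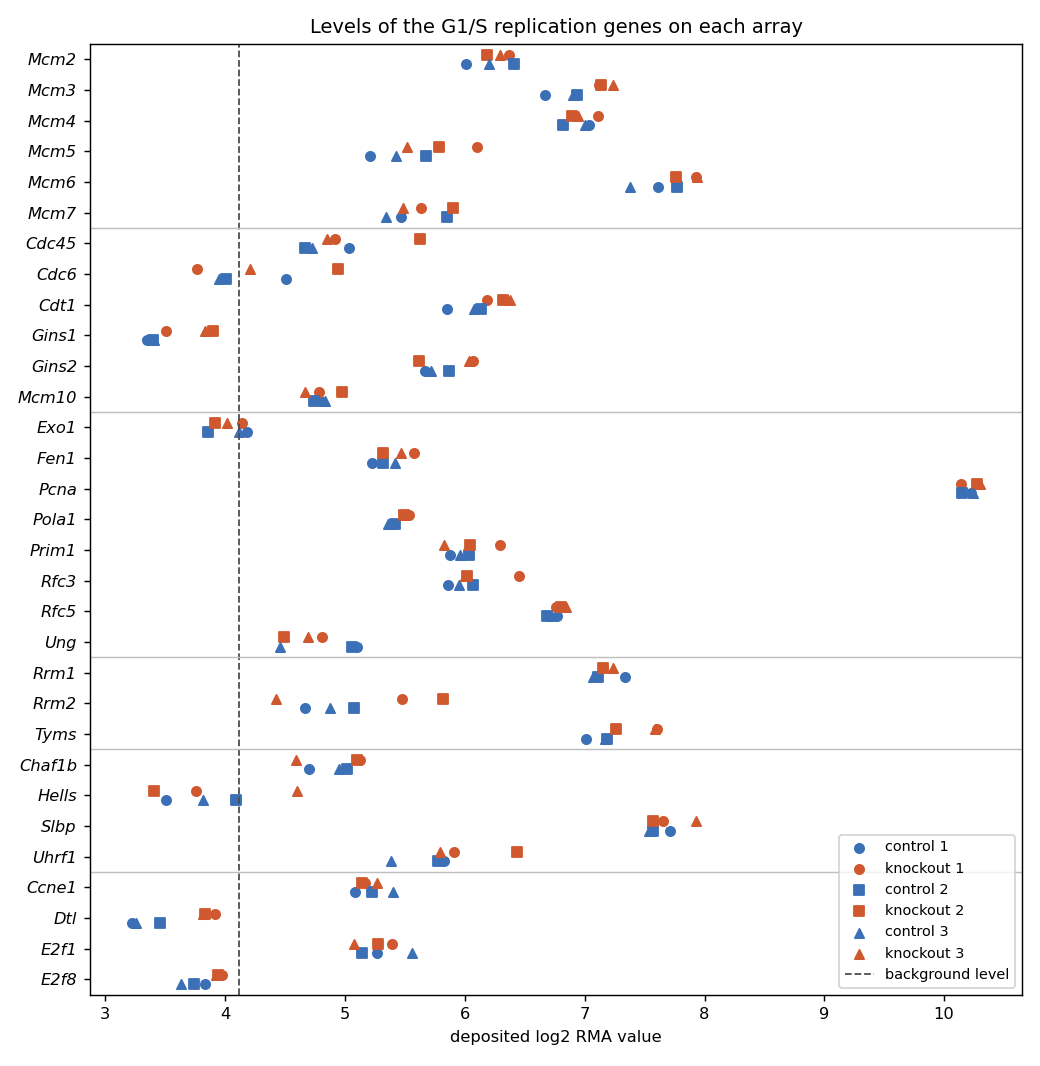
Deposited log2 RMA value (x axis) of each of the 31 measured replication genes on the 3 knockout arrays (orange) and the 3 control arrays (blue), with circles, squares and triangles for replicates 1, 2 and 3 and a dashed line at the background level of 4.11. Above the line the groups separate by narrow gaps for Tyms, Mcm3, Cdt1 and Pola1, and Rrm2 spreads widely in the knockout. Gins1, Dtl and E2f8 lie below the line on every array, with groups that also separate.

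The small shift was uneven over the knockout arrays. Averaged over the 26 members, knockout 1 lay 0.18, knockout 2 lay 0.19 and knockout 3 lay 0.064 above the control mean, while controls 1, 2 and 3 lay at -0.019, 0.051 and -0.032. Knockout 3 was thus close to control 2, and no p is given for this average. By the median over members, the arrays stood at 0.16, 0.094 and 0.072 in the knockout and -0.067, 0.071 and -0.0072 in the control, so that knockout 1 alone was clearly above control 2. Knockouts 1, 2 and 3 lay above the control mean for 20, 17 and 18 members, and controls 1, 2 and 3 for 12, 15 and 12. The mean of knockout 2 held high values of a few genes: without that array the change was 0.078 for Cdc45, 0.079 for Rrm2, 0.19 for Uhrf1 and -0.17 for Cdc6, against 0.33, 0.37, 0.38 and 0.15 with it. Knockout 1 was the highest of the 6 arrays for 9 members, knockouts 2 and 3 for 6 each, and the controls for 2, 1 and 2. Over all genes tested these shares lay between 13.8% and 19.8% for each array. Controls 1 and 3 were the lowest for 8 and 7 of the 26 members and knockout 3 for 5. Over all genes tested these arrays were the lowest for 14.5%, 17.7% and 20.0%. The arrays differed by role: the helicase subunits averaged highest in knockout 1 (0.28 above the control mean), their loading and activation genes in knockout 2 (0.39), and for nucleotide supply knockouts 1 and 2 were level (0.35 each) with knockout 3 at 0.029. For the helicase subunits control 2 (0.15) lay above knockout 3 (0.14).

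**Figure D4:**
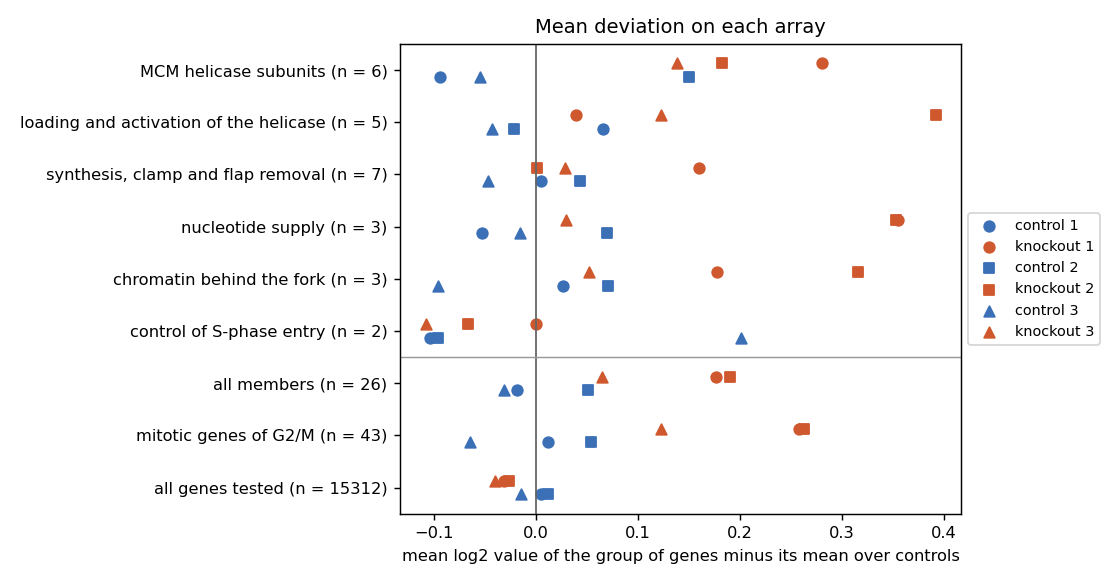
Mean log2 value of each group of genes on each array minus the mean over controls (x axis), for the 6 roles, all 26 members, 43 mitotic genes and all 15312 genes tested, with knockout arrays in orange and control arrays in blue. Knockouts 1 and 2 lie at 0.18 and 0.19 for all members, knockout 3 at 0.064 lies near control 2 at 0.051, and all genes tested stay within 0.041 of 0.

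Members with E2F letters in the promoter window had larger changes than members without, a division made after the values were seen and given without a test. The 9 tested members with the letters had changes from 0.11 to 0.38 with a median of 0.28, and the knockout mean was higher in each. The 15 with a window but without the letters ran from -0.21 to 0.37 with a median of 0.074, and Rrm2, Tyms and Cdc45 were the 3 of them above 0.3. Outside these genes, genes with and without the letters lay close to each other. Among 482 other tested genes with E2F letters, leaving out mitotic genes, the median change was -0.0087, 47.7% had a higher mean and 6 were called, 1 of them higher. In 11376 others without the letters the median was -0.017 and 46.7% had a higher mean. The other motifs divided the members in the same direction. All 15 members with CCAAT had a higher mean (median 0.12), against 6 of 9 without (median 0.076). All 5 with CHR letters did (median 0.13), against 16 of 19 without (0.11). The 2 with E-box letters did as well (median 0.25), against 19 of 22 without (0.11).

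**Figure D5:**
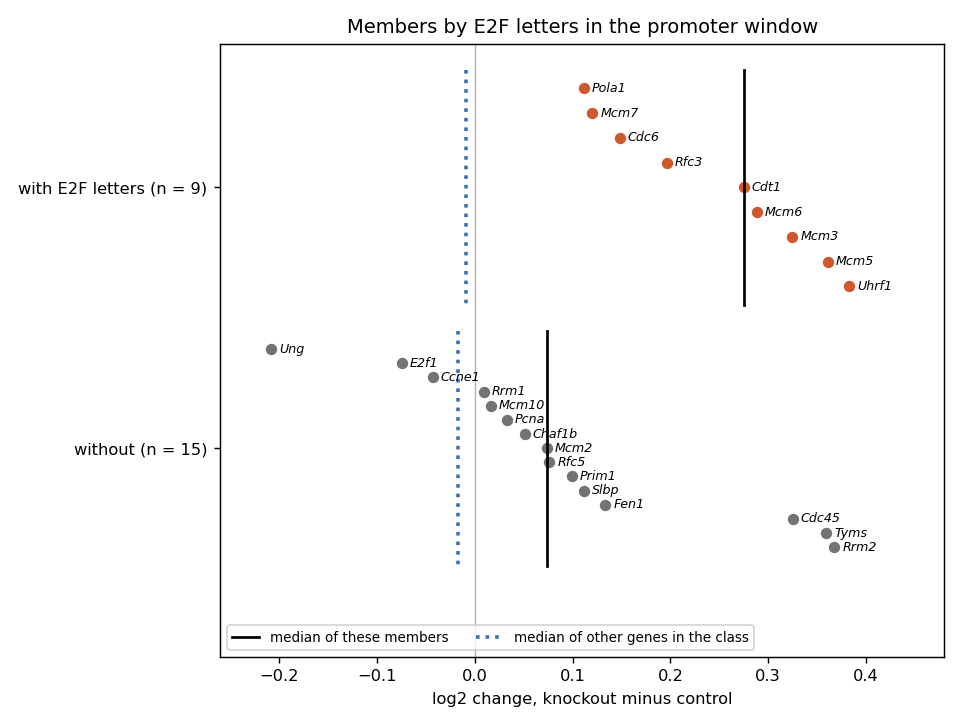
Log2 change (knockout minus control, x axis) of each tested member with a RefSeq promoter window, by whether the window holds E2F letters (9 genes, above) or not (15 genes, below). Solid lines mark the medians of 0.28 and 0.074, and dotted lines the medians of -0.0087 and -0.017 of other genes in the same class.

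Other genes of the pathway, in 8 lists with 128 genes above background that are not members, gave 5 calls, with a median change of 0.075 and a higher mean in 85. Over all genes tested, 2.57% were called and 46.7% had a higher mean. The calls were 3 higher and 2 lower. Prim2, the large primase subunit and partner of PRIM1, was the 1 called among 25 other fork genes (15 with a higher mean, median 0.036). It was at 6.48, 6.35 and 6.42 in the knockout and 5.74, 5.91 and 5.71 in the control, a rise of 0.63 ± 0.13 (adjusted p = 0.0407) with groups far apart, though the call was lost with any 1 array left out (adjusted p from 0.0739 to 0.136). Its change exceeded that of every member. Among 17 other licensing and firing genes none was called, 11 had a higher mean and the median was 0.086. Topbp1, which helps to activate the helicase, was at 0.31 ± 0.11 (adjusted p = 0.183), and Cdc7, the kinase that acts on it, at -0.33 ± 0.16 (adjusted p = 0.343).

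Nucleotide genes held changes in both directions. Of 16 other genes above background 13 had a higher mean, with a median of 0.16, and 2 were called. Nme1, a nucleoside diphosphate kinase, rose from 10.09, 10.20 and 9.86 to 10.69, 10.62 and 10.60 (0.59 ± 0.088, adjusted p = 0.0137). Samhd1, an enzyme that breaks down deoxynucleotides, fell from 9.86, 9.75 and 9.85 to 9.42, 9.32 and 9.15 (-0.52 ± 0.087, adjusted p = 0.0205). Neither pair of groups overlapped. Leaving out knockout 1 (adjusted p = 0.0506) or knockout 3 (adjusted p = 0.0571) ended the Nme1 call, and the Samhd1 call ended without knockout 2 (adjusted p = 0.0558), knockout 3 (adjusted p = 0.0659) or control 3 (adjusted p = 0.0814). Both calls were lost without the variance trend (adjusted p = 0.0701 for Nme1 and 0.0815 for Samhd1). Among 15 chromatin genes, 12 with a higher mean and a median of 0.047, Kmt5a, a histone H4 methyltransferase that acts in origin licensing, rose (0.57 ± 0.11, adjusted p = 0.0375), a call lost with any 1 array left out (adjusted p from 0.0637 to 0.126). None of 16 repair and checkpoint genes was called, 9 had a higher mean and the median was 0.079. Hus1, a checkpoint clamp subunit, was at 0.57 ± 0.19 (adjusted p = 0.159).

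Among regulators upstream of these genes, in lists of 15, 17 and 7, 1 was called, where 2.57% of all genes tested were. It was Cdkn1b, and it was lower. Of 15 RB and E2F regulators none was called, with a median of 0.066, a range from -0.29 to 0.68 and a higher mean in 10. Tfdp1, a partner with which most E2F factors bind DNA, was at 6.81, 6.85 and 7.03 in the knockout and 6.36, 6.36 and 6.32 in the control (0.55 ± 0.12, adjusted p = 0.0527). Rbl2, an RB family member, was at -0.29 ± 0.13 (adjusted p = 0.286). Of 17 cyclins, kinases and related genes none was called and 13 had a higher mean. Their median was 0.20, with changes from -0.42 to 1.29. Ccnd1, the cyclin that starts RB phosphorylation, was at 9.81, 9.75 and 9.45 against 9.07, 9.32 and 9.06 (0.51 ± 0.12, adjusted p = 0.0546). Cks2, a small kinase subunit also on the mitotic list, was at 1.29 ± 0.33 (adjusted p = 0.0796). Tfdp1, Ccnd1 and Cks2 did not overlap between groups. Of 7 CDK inhibitors 5 had a lower mean, with changes from -0.63 to 0.53. Cdkn1b, which encodes the inhibitor p27 of resting cells, fell from 8.81, 9.0 and 8.91 to 8.48, 8.50 and 8.48 (-0.42 ± 0.086, adjusted p = 0.0406). That call held without control 1 and was lost without each of the other arrays (adjusted p from 0.0867 to 0.132).

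Mitotic genes of G2/M also lay slightly higher. Of 43 above background, 36 had a higher mean in the knockout, 0 were called and 6 passed an unadjusted p of 0.05, with a median change of 0.15. The 6, counted in either direction, are a smaller share than the 16.4% of all genes at that p counted likewise. Of all genes, 7.2% passed that p as higher in the knockout, and 46.7% had a higher mean. All knockout arrays lay above all control arrays for 11 of the 43 and below for 0, against 9.78% and 12.3% of all genes. On the arrays their average lay at 0.26, 0.26 and 0.12 in the knockout and 0.011, 0.054 and -0.065 in the control, so that knockout 3 was again the lowest of the knockouts. Kif11, a spindle motor, averaged 4.74 on the knockout arrays, while its control average of 4.01 lay below background (adjusted p = 0.0636). The difference between the replication and the mitotic genes was not tested.

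Markers of enterocytes and of some other cells differed between the groups by far more than the replication genes. Other marker lists had smaller medians, up to 0.29 for B and plasma cell markers, against 0.12 for the replication genes. Pecam1, which encodes CD31, averaged 11.4 in both groups, and 15 endothelial markers lay at means of 10.7 to 10.8 on all 6 arrays. Single endothelial markers moved both ways, from -1.28 to 0.35 with a median of 0.086, and 8 of the 15 passed an unadjusted p of 0.05. Named after their values were seen, Cldn5, a tight junction protein, fell (-1.28 ± 0.19, adjusted p = 0.0137) and Eng, a coreceptor of TGF-beta ligands, rose (0.26 ± 0.044, adjusted p = 0.0211). Of the markers sorted against, Epcam was at 3.74, 3.75 and 3.81 in the knockout and 3.87, 7.20 and 6.24 in the control (-2.01 ± 0.67, adjusted p = 0.172), above background on controls 2 and 3 only. Ptprc, which encodes CD45, averaged 4.14 in the knockout and 4.46 in the control, and Pdpn, which encodes gp38, 5.11 and 5.42. Apc averaged 6.35 and 6.50 and does not check the labels, since it was deleted in other cells. All 14 enterocyte markers were lower in the knockout, 12 of them called, with a median of -3.11 and a list mean of 5.26 to 5.66 on the knockout arrays and 7.11 to 9.12 on the control arrays. Control 1 was the lowest control. Fabp2 and Fabp1, fatty acid carriers with the highest signal of the list, fell, with log2 changes of -3.29 and -3.57. Of 15 crypt stem and transit-amplifying markers, 13 had a lower mean, 8 passed an unadjusted p of 0.05 and 0 were called. Their median was -0.33, with list means of 5.23 to 5.39 against 5.53 to 6.03, and Olfm4 was not above background. This list joins markers of dividing crypt cells with genes of epithelium in general, such as Epcam and Krt8. Slc12a2 and Krt8, the genes of this list with the highest signal, were at -0.07 ± 0.13 (adjusted p = 0.843) and -1.63 ± 0.42 (adjusted p = 0.082). Lgr5, a crypt stem cell marker named after its values were seen, was at 0.14 ± 0.18 (adjusted p = 0.773). Smooth muscle and pericyte markers had a median of -0.73, with 6 of 12 called lower. Medians were also below 0 for secretory epithelial markers (-1.32, 0 of 10 called and 6 at an unadjusted p of 0.05), T and NK cell markers (-0.62, Ccl5 called of 11, list means 4.66 to 4.97 against 5.30 to 6.01), fibroblast markers (-0.38, Col1a2 called of 7), glia and neuron markers (-0.23, 0 of 3 called) and platelet markers (-0.086, 0 of 3 called). They were above 0 for B and plasma cell markers (0.29, 0 of 6 called), macrophage, dendritic and granulocyte markers (0.19, 0 of 10 called) and lymphatic endothelial markers (0.18, Lyve1 and Flt4 called higher of 7). Against control 1 alone, a single array without a replicate whose calls are not read here, 21 of 26 members had a higher mean and the median change was 0.19. The part of these cells in the replication gene values was not tested.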

How the data were processed

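The deposited table holds log2 values of 41345 probe sets. The authors made them with RMA in the oligo package, per the submitters' processing notes, with versions not given in the sources used here. RMA corrects background, normalizes arrays by quantiles and sums probes up on the log2 scale. Array medians lay between 4.77 and 4.81. Arrays have no read depth, and their number limits the precision. Values of different probe sets are not comparable as levels.

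Gene names came from the platform annotation, which pairs 23521 probe sets with 1 symbol, 1814 with more than 1 and 16010 with no symbol. The test was two-sided, by limma 3.58.1 under R 4.3.3 (lmFit, then eBayes, trend = TRUE), over 15312 genes above background. P-values were adjusted by Benjamini-Hochberg, and genes under 0.05 were called. P-values weigh the group difference against the spread between samples labelled as biological replicates, which eBayes moderates across genes. The procedure was tested on simulated data.

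The members and all gene lists were chosen with earlier results of these data known. Values on every array were given for the 8 members with the smallest p, the 2 with the highest signal and those whose groups did not overlap, with some added after their values were seen. Of each pathway list, called genes were named, or else the 2 with the smallest p, of which 1 repair gene is not reported here. Of 12 lists of cell type markers, medians were given, with the 2 markers of highest signal for the enterocyte and crypt lists. Promoter windows came from RefSeq for 28 of the 33 genes. Same-numbered arrays of the groups did not deviate together (correlations of -0.021, -0.0074 and 0.039 over genes), so the numbers were not taken as pairs. Alternatives covered the filter, probe sets, normalization, variance model, array weights, replicate number, threshold and each array left out. Plots were drawn with matplotlib 3.10.9.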

Additional observations from a re-analysis of the deposited data

How the results depend on the processing

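No member was called under the alternatives, which tested all 26 except for the stricter background filter, which tested 9. Without the background filter all 31 measured members were tested, with 0 called and a higher knockout mean in 27. Against control 1 alone 1 group is a single array, and the count of 0 there says nothing about stability. Among the 26 members above background, the lowest adjusted p under any alternative was 0.111, that of Tyms without knockout 2. A higher knockout mean was found for 20 to 24 of the 26 with 1 array left out, for 22 with array weights (Mcm10 turned), for 24 with quantile normalization repeated, and for all 9 that passed the stricter background filter. The median change of the members was 0.086 to 0.16 with 1 array left out, 0.20 with quantile normalization repeated and 0.19 against control 1 alone, and the change of their mean was 0.12 to 0.18 with 1 array left out. With the replicate block the count of members with a higher mean stayed at 23 and the count of all genes called was 394.

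The count of all genes called was 393, and 91 to 379 with 1 array left out, 139 without the variance trend, 768 at a threshold of 0.10 and 52 against control 1 alone. Genes called in the pathway and mitotic lists numbered 5, and 0 to 4 with 1 array left out, 3 without the background filter, 1 without the variance trend, 3 with the replicate block, 12 at a threshold of 0.10 and 0 against control 1 alone. With the replicate block Prim2 (adjusted p = 0.0889), Kmt5a (adjusted p = 0.0602) and Cdkn1b (adjusted p = 0.0697) were lost and Ccnd1 (adjusted p = 0.0421) gained. A higher mean in these lists was found for 118 of 167 genes, 63 of 92 under the stricter filter and 112 to 120 with 1 array left out. Under 1 common array median 225 genes were called higher and 231 lower, against 168 and 225. Genes of low signal are limited by background, and where these results moved the cause was not tested.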
